A study of Mus musculus with 6 samples.

Results

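The genes described here are those for complex I of the respiratory chain and its assembly factors, taken as every row of the deposited count table whose symbol starts with Nduf. There were 45 such rows among 45808, and leaving out names of pseudogenes removed 0 of them. Complex I takes electrons from NADH, passes them to ubiquinone and pumps protons across the inner mitochondrial membrane. Its peripheral arm, in the matrix, holds the part that binds NADH and the part that binds ubiquinone, and its membrane arm holds the proton pumps. Subunits come from nuclear genes and from mitochondrial DNA, and assembly factors put them together without staying in the finished enzyme. Activated T cells are known to use both glycolysis and respiration, and complex I renews the NAD+ that both need.

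RNA was sequenced from T cells purified from the spleens of C57BL/6 mice, with an age given as 2M in the labels, and activated in culture with antibodies to CD3 and CD28 and with IL-2. The 3 control libraries came from wild-type mice and the 3 KO libraries from mice labelled Drp1-/-, and KO is used here as that label. Drp1, encoded by Dnm1l, is the GTPase that divides mitochondria. By its title the study asked, among other things, how Drp1 bears on the metabolic change that activated T cells go through. The labels do not name the deletion strategy, nor say whether replicates came from separate animals, so the p-values rest on sample-to-sample spread that could be technical.

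Total counts ran from 24738017 to 34730475 per library. Dnm1l stood at 117 to 123 CPM in the wild-type group and 92.6 to 100.6 CPM in the KO group, where CPM are counts scaled to library size with TMM factors. Its counts fell by 19.7% (log2 -0.32 ± 0.05 SE), so most of its RNA was still counted in KO, less of a drop than a label of complete loss would give if the whole transcript were lost. The labels do not name the deleted exons, and counts per gene do not show whether any exon was missing. Xist had 0 to 3 counts in wild-type and 12950 to 16862 in KO libraries. The 4 Y-linked genes examined were read in all 6 libraries and fell in KO (log2 -0.88 to -0.45). Xist and Y-linked RNA were thus both read in every KO library. Over these libraries Xist ran from 417 to 472 CPM and the Y-linked Ddx3y from 69.7 to 77.2 CPM. The mix of sexes therefore differed between the groups and cannot be told apart from genotype. Whether the KO libraries were drawn from a shared pool of animals of both sexes was not tested. T cell markers summed to 3472 to 3536 CPM in the wild-type group and 2961 to 3039 CPM in the KO group. Of these 10 markers 8 were called lower, beside 26.1% of all tested genes. Natural killer cell markers summed to 16.2 to 23.1 CPM in the wild-type group and 33.8 to 40.5 CPM in the KO group. Most of that sum was Eomes (18.5 ± 3.08 and 32.8 ± 3.12 CPM, SD, n = 3 each), which activated CD8 T cells also express, while Klrb1c and Ncr1 rose from low levels and Klra8 was at 0.277 ± 0.0597 and 0.243 ± 0.135 CPM. The markers of red cells and platelets summed to 2.00 to 2.62 and 8.13 to 11.1 CPM. B cell markers summed to 143 to 156 and 142 to 151 CPM, and those of myeloid cells to 6.21 to 6.25 and 4.38 to 5.46 CPM, with S100a8 and S100a9 at 0 counts in every library. In the myeloid list Itgam and Flt3 fell, Lyz2 rose (log2 1.36 ± 0.34) from 0.187 to 0.489 CPM, and Cd14, not tested, had 0 to 2 counts in wild type and 5 to 7 in KO. The part of these differences in the results below was not tested. Fewer cells of a type and less RNA per cell cannot be told apart in these bulk libraries.

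More complex I genes were higher than lower in KO, by small amounts, and a few abundant subunits were lower. Among 44 tested members there were 27 that rose and 5 that fell, and 12 did not pass an adjusted p of 0.05 (edgeR quasi-likelihood test, Benjamini-Hochberg adjustment over all tested genes). Across all 14209 tested genes 52.9% were called, 26.7% higher and 26.1% lower, against 72.7% of the members called and 61.4% higher. The median log2 fold change of the members was 0.18, and 0.01 over all tested genes. Changes ran from a log2 fold change of -0.73 for Ndufv3 to 0.63 for Ndufaf4. Without wild-type replicate 1, the wild-type library least like the others over all genes (chi-square per gene of 11.9 and 13.2 against them, beside 2.54 between the other two), 25 rose and 5 fell, with a median of 0.17. With each of the 6 libraries left out in turn 18 to 25 rose, the fewest without KO replicate 2, and 3 to 5 fell, the fewest without KO replicate 3. With library totals alone as the scaling, where 62.0% of all calls were higher against 50.6% here, 29 members rose and 3 fell.

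The summed RNA of the family moved by less than most single members. All 45 genes together took 0.268%, 0.279% and 0.267% of counts in the wild-type libraries and 0.298%, 0.302% and 0.292% in the KO libraries, by replicate number. On the TMM scale the sums were 2785 ± 73.2 CPM over the wild-type libraries and 2898 ± 45.5 CPM over the KO libraries (SD, n = 3 each), a ratio of 1.04. The KO sums were higher than the wild-type sums in every pairing of libraries, with the nearest values at 2836 CPM for wild type and 2853 CPM for KO.

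**Figure D1:**
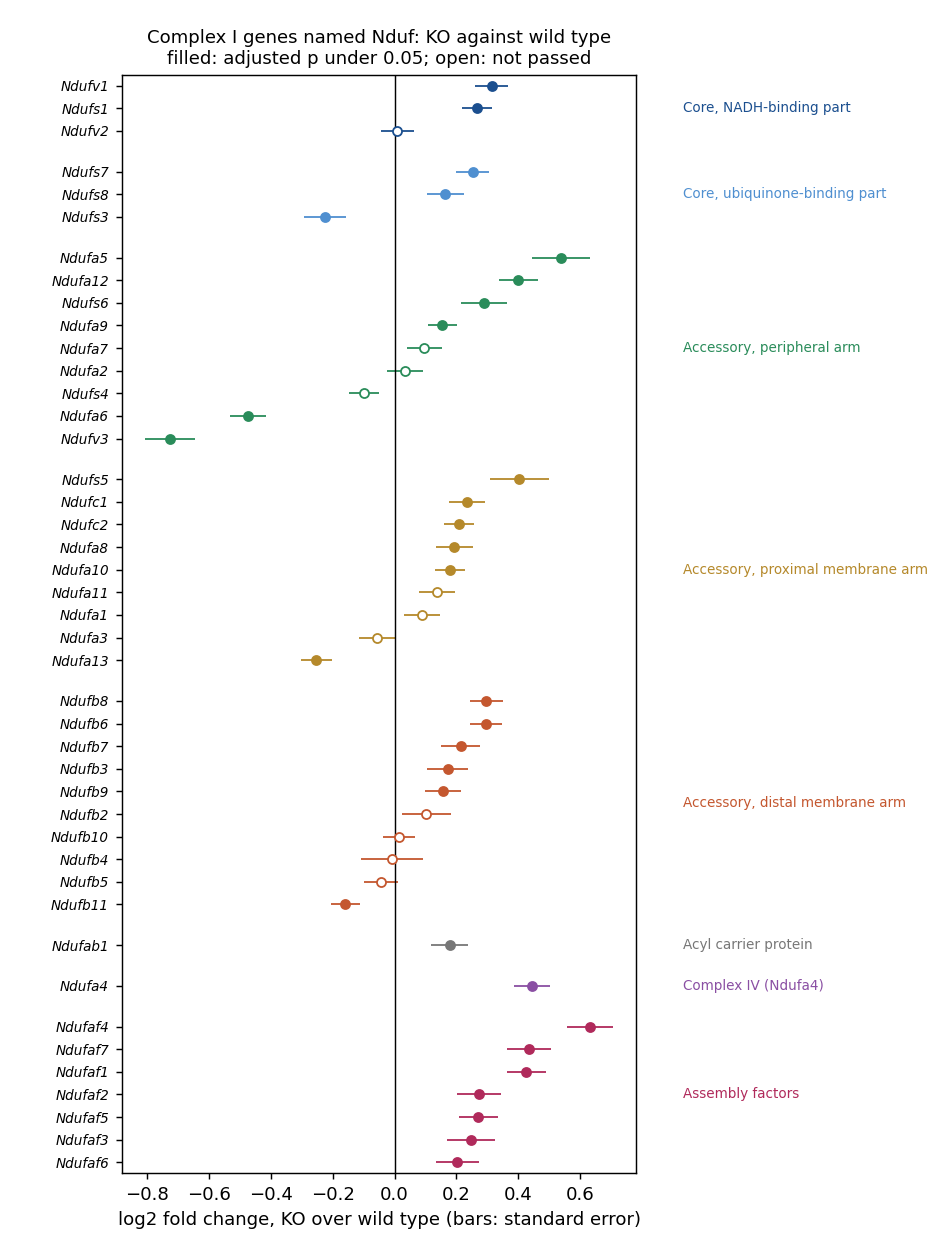
Log2 fold change of KO over wild type (x axis, bars are the standard error) for 43 of the 44 tested Nduf genes (y axis), grouped and coloured by place in the enzyme; filled points passed an adjusted p of 0.05. All 7 assembly factors lie to the right of 0, and Ndufv3 lies farthest left at -0.73.

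The 6 nuclear core subunits described here, of the part of the enzyme that carries the electrons, did not move together: 4 rose, 1 fell and 1 did not pass. Over all tested genes 26.7% were higher and 26.1% lower, so calls in both directions are not particular to the core. In the NADH-binding part, Ndufv1, which binds NADH and the flavin, was at 85.5, 94.1 and 91.3 CPM in wild-type replicates 1 to 3 and at 110.1, 116 and 111 CPM in the KO replicates of those numbers, an order kept in the sentences that follow. Its groups did not overlap, and it rose by 24.3% (log2 0.31 ± 0.05 SE, adjusted p = 0.000785, edgeR). For this and every later statement that groups do not overlap, the share over all tested genes was not counted. Ndufs1, the largest subunit and a carrier of iron-sulfur clusters, was at 98.3, 100.8 and 96.3 CPM in the wild-type libraries and 115, 121 and 119 CPM in the KO libraries, again without overlap (log2 0.27 ± 0.05). Ndufv2, the iron-sulfur partner of Ndufv1, did not follow them. It was at 119.7, 110.4 and 109.9 CPM in the wild-type libraries and 112, 119 and 112 CPM in the KO libraries, so that the groups overlapped (log2 0.01 ± 0.05, adjusted p = 0.895, edgeR).

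In the ubiquinone-binding part the core subunits split. Ndufs7, which carries the iron-sulfur cluster that hands electrons to ubiquinone, was at 55.1, 61.1 and 58.2 CPM in the wild-type libraries and 69.7, 68.9 and 69.4 CPM in the KO libraries (log2 0.25 ± 0.05). Ndufs8, another iron-sulfur subunit, was at 64.5, 71.4 and 62.2 CPM in the wild-type libraries and 74.0, 75.5 and 72.7 CPM in the KO libraries (log2 0.16 ± 0.06). Both had every KO library above every wild-type library. Ndufs3, a scaffold subunit without a cluster, went the other way, from 71.7, 64.5 and 59.4 CPM in wild type to 54.8, 56.3 and 56.1 CPM in the KO libraries (log2 -0.23 ± 0.07, adjusted p = 0.0176, edgeR). Its wild-type replicate 1 was the highest library, and without it the log2 fold change was -0.16. The call of Ndufs8 was lost without wild-type replicate 3 (adjusted p = 0.164) and without KO replicate 1, 2 or 3 (0.0947, 0.118 and 0.0802), and that of Ndufs3 without KO replicate 1 (0.0563) or 3 (0.0518) and with library totals alone (0.0632), by edgeR.

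The largest fall and the second largest rise of the family were both found among accessory subunits of the peripheral arm. There 4 of 9 rose, 2 fell and 3 did not pass, or 66.7% called, beside 52.9% of all tested genes. Ndufv3, a small subunit bound beside Ndufv1 and Ndufv2 and known for splice forms that differ between tissues (chromosome 17, 31520115 to 31531331, mm10), was at 189, 169 and 149 CPM in wild type. In KO it was at 107, 102.6 and 96.5 CPM, so that the lowest wild-type library was above the highest KO library. It fell by 39.6% (log2 -0.73 ± 0.08, adjusted p = 9.26e-05, edgeR) and was called in all 14 alternative fits (other scalings, filters and tools, a replicate block, and each library left out), with log2 fold changes of -0.81 to -0.64. A gene-level count does not show which splice form changed.

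The balance of the NADH-binding part can be read within each library, free of any scaling between libraries. There were 2.21, 1.79 and 1.63 Ndufv3 counts per Ndufv1 count in wild-type replicates 1 to 3, and 0.974, 0.882 and 0.871 in KO replicates 1 to 3. The mean ratio was 1.88 ± 0.297 in wild type and 0.909 ± 0.0565 in KO (SD, n = 3 each). No test is given, since each of the 2 genes already had groups that did not overlap, in opposite directions. For Ndufv2 per Ndufv1 the ratios were 1.40, 1.17 and 1.20 in wild type and 1.01, 1.02 and 1.01 in KO. In all 3 KO libraries both ratios were below those of all 3 wild-type libraries.

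Ndufa6, which anchors a copy of the acyl carrier protein to the peripheral arm (chromosome 15, 82350140 to 82354322), was at 131, 122 and 116 CPM in the wild-type libraries and 93.3, 87.6 and 84.8 CPM in the KO libraries. The groups stood apart. The gene fell by 28.0% (log2 -0.47 ± 0.06, adjusted p = 0.000166, edgeR) and was called in all 14 alternative fits. Ndufa5 rose most in this group, from 17.8, 20.1 and 17.1 CPM to 24.9, 30.2 and 25.0 CPM (log2 0.54 ± 0.09, adjusted p = 0.000912, edgeR). Ndufa12, a subunit related to the assembly factor Ndufaf2, rose by 0.40 ± 0.06 on the log2 scale, the zinc-binding Ndufs6 by 0.29 ± 0.07 and Ndufa9 by 0.15 ± 0.05. Ndufa9 lost its call without KO replicate 2 (adjusted p = 0.0783, edgeR) or 3 (0.0751). Ndufa7 (log2 0.10), Ndufa2 (0.03) and Ndufs4 (-0.10), whose loss is a known cause of mitochondrial disease, did not pass. The summed level of the 9 genes was 686 ± 30.8 CPM over the wild-type libraries and 625.5 ± 13.2 CPM over the KO libraries (SD, n = 3 each), lower in KO although more members rose than fell.

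**Figure D2:**
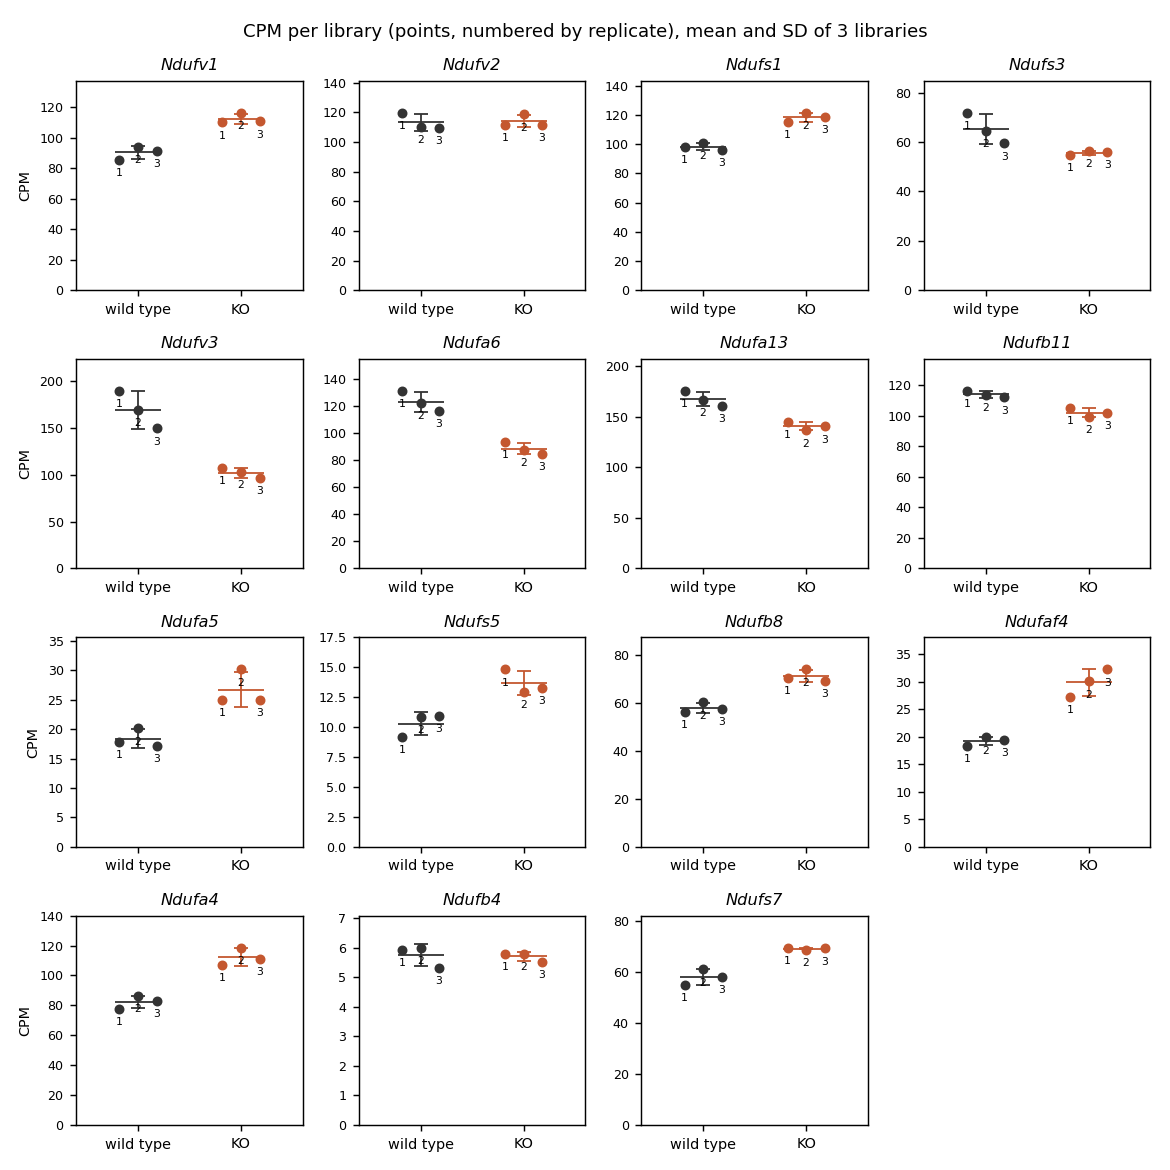
CPM (y axis, from 0) of 15 Nduf genes for the wild-type and KO groups (x axis); each point is 1 library with its replicate number, and the horizontal line with its error bar gives the group mean and SD (n = 3). Ndufv3 is at 149 to 189 CPM in the wild-type group and 96.5 to 107 CPM in the KO group, and Ndufv2 overlaps between the groups.

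Among accessory subunits of the proximal membrane arm, next to the peripheral arm, 5 of 9 rose, 1 fell and 3 did not pass. That is 66.7% called, beside 52.9% over all tested genes. Ndufs5, a subunit on the face of the arm toward the intermembrane space, rose from 9.15, 10.8 and 10.9 CPM to 14.8, 12.9 and 13.3 CPM (log2 0.40 ± 0.09, adjusted p = 0.00496, edgeR). Ndufc1 (log2 0.23), Ndufc2 (0.21), Ndufa8 (0.19) and Ndufa10 (0.18) rose less. The member that fell was Ndufa13, also known as GRIM-19 (chromosome 8, 69894180 to 69902558), at 175, 167 and 161 CPM in the wild-type libraries and 145, 137 and 140.5 CPM in the KO libraries. Its groups did not overlap (log2 -0.25 ± 0.05, adjusted p = 0.00199, edgeR), and all 14 alternative fits called it. In the GENCODE annotation 30.0% of its exon bases are shared with Tssk6 on the opposite strand, and the strand setting of the counting is not given in the sources used here. Ndufa11 (log2 0.14), the X-linked Ndufa1 (0.09) and Ndufa3 (-0.06) did not pass. Without wild-type replicate 3 the calls of Ndufa10 (adjusted p = 0.0557, edgeR) and Ndufa8 (0.0617) were lost, and that of Ndufa8 also without KO replicate 2 (0.0880) or 3 (0.0844).

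Accessory subunits of the distal membrane arm changed by at most 0.30 on the log2 scale, with 5 of 10 higher, 1 lower and 4 not passing. Called members made up 60% of them, near the 52.9% over all tested genes. Ndufb8, a subunit whose protein is commonly used to gauge assembled complex I, rose from 56.3, 60.3 and 57.7 CPM to 70.7, 74.2 and 69.4 CPM (log2 0.30 ± 0.05, adjusted p = 0.00103, edgeR). Ndufb6 rose alongside it (log2 0.30 ± 0.05), with 39.0% of its exon bases shared with Smim27 on the opposite strand. Ndufb7 (log2 0.21), Ndufb3 (0.17) and Ndufb9 (0.16) also passed. Of the exon bases of Ndufb9, 19.5% are shared with Gm49356 on the same strand. Ndufb3 had overlapping groups and lost its call without any 1 of wild-type replicates 1 (adjusted p = 0.0515, edgeR) and 3 (0.147) and KO replicates 1 (0.118) and 2 (0.180). Ndufb9 lost it without the same libraries (0.0518, 0.103, 0.0829 and 0.167), and Ndufb7 without wild-type replicate 3 (0.0610) and KO replicates 1 (0.0504) and 2 (0.0589).

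Ndufb11, an X-linked subunit needed for assembly (chromosome X, 20615326 to 20617619), fell from 116, 113 and 112 CPM to 105, 99.2 and 101.5 CPM. The drop was small but the groups did not overlap (log2 -0.16 ± 0.05, adjusted p = 0.0160, edgeR). With library totals alone as the scaling it was -0.08 (adjusted p = 0.158, edgeR), and without KO replicate 2 or 3 the adjusted p was 0.0786 or 0.0596. Of the exon bases of Ndufb11, 12.9% are shared with Rbm10 on the opposite strand. The other X-linked member, Ndufa1, did not pass, at 39.1 ± 2.04 CPM over the wild-type libraries and 41.7 ± 1.03 CPM over the KO libraries (SD, n = 3 each). The part of the mix of sexes in the values of these X-linked genes cannot be told apart from genotype. Ndufb2 (log2 0.10), Ndufb10 (0.01), Ndufb4 (-0.01) and Ndufb5 (-0.04) did not pass either.

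Ndufab1, the mitochondrial acyl carrier protein, sits in both arms and also serves lipoic acid synthesis. It was at 43.9, 40.5 and 38.1 CPM in the wild-type libraries and 46.7, 46.0 and 45.7 CPM in the KO libraries (log2 0.18 ± 0.06, adjusted p = 0.0308, edgeR). KO libraries were all above wild type by a narrow margin, and the call was lost without wild-type replicate 2 (0.0834) or 3 (0.139) and without KO replicate 1, 2 or 3 (0.0904, 0.0763 and 0.0769).

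Ndufa4 carries the family name, but its protein is found with complex IV, cytochrome c oxidase. It was at 77.8, 86.2 and 82.8 CPM in the wild-type libraries and 107, 119 and 111 CPM in the KO libraries, a rise of 36.2% (log2 0.45 ± 0.06, adjusted p = 0.000205, edgeR). Every KO library was above every wild-type library, and all 14 alternative fits called it. Its paralog Ndufa4l2, a gene induced by HIF1 under low oxygen, had 1 or 2 counts in each of the 6 libraries. It did not pass the filter on low counts, and no fold change is given for it.

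All 7 assembly factors in the table rose, by a median of 0.27 on the log2 scale, beside 26.7% of all tested genes. Each had every KO library above every wild-type library, and the share of all tested genes with that separation was not counted. Ndufaf4, which with Ndufaf3 helps build the ubiquinone-binding part, had the largest rise of the whole family. It was at 18.4, 19.9 and 19.4 CPM in the wild-type libraries and 27.3, 30.1 and 32.2 CPM in the KO libraries, 55.0% higher (log2 0.63 ± 0.07, adjusted p = 0.000128, edgeR). Ndufaf7, a mitochondrial methyltransferase, rose by 0.43 ± 0.07 and Ndufaf1, which helps assemble the membrane arm, by 0.43 ± 0.06. Ndufaf2, a late factor for the NADH-binding part, rose by 0.27 ± 0.07, Ndufaf5, which hydroxylates Ndufs7, by 0.27 ± 0.06, Ndufaf3 by 0.25 ± 0.08 and Ndufaf6 by 0.20 ± 0.07. In the annotation 65.6% of the exon bases of Ndufaf2 are shared with B230220B15Rik on the opposite strand.

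Summed over the 7 genes, the level went from 127.5 ± 3.28 CPM in wild type to 165 ± 2.24 CPM in KO (SD, n = 3 each), a ratio of 1.30. The sums did not overlap, at 124 to 130.5 CPM and 163 to 167 CPM. The calls of Ndufaf1, Ndufaf2, Ndufaf4, Ndufaf5 and Ndufaf7 held in all 14 alternative fits. Ndufaf6 lost its call without wild-type replicate 2 (adjusted p = 0.120, edgeR) or 3 (0.0910) and without KO replicate 1, 2 or 3 (0.112, 0.0553 and 0.0801). Ndufaf3 lost it without KO replicate 1, 2 or 3 (0.0659, 0.0548 and 0.0662).

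**Figure D3:**
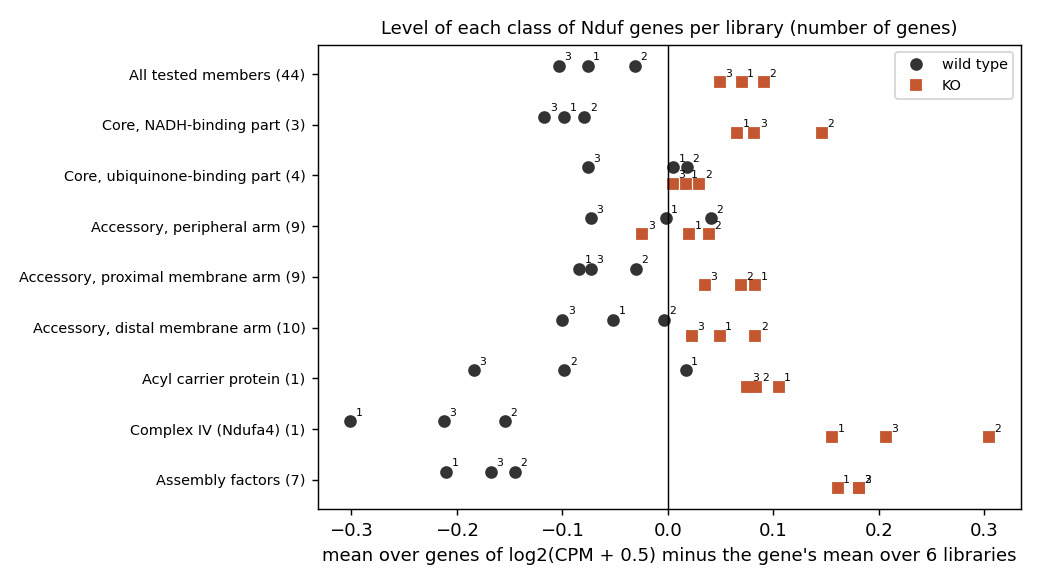
Mean over the genes of each class of log2(CPM + 0.5) after subtracting each gene's own 6-library mean (x axis), drawn for every library, for all tested Nduf genes together and for 8 classes (y axis, with gene numbers). Wild-type libraries are circles and KO libraries squares, numbered by replicate. Assembly factors lie at -0.21 to -0.14 in wild type and 0.16 to 0.18 in KO, while the classes of the ubiquinone-binding core and the peripheral arm overlap between genotypes.

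Complex I genes outside the Nduf name were read for comparison. Of 12 other assembly factors, 9 rose, 1 fell and 2 were not called (median 0.30). The share higher was 75%, beside 26.7% of all tested genes. The largest rise was that of 1810043H04Rik, an older symbol of Ndufaf8, the partner of Ndufaf5, from 8.19 ± 1.06 to 11.7 ± 0.778 CPM (log2 0.51 ± 0.11). Ecsit (log2 0.40 ± 0.07) and Acad9 (0.33 ± 0.06), which work with Ndufaf1 in an intermediate of the membrane arm, rose, while Tmem126b of the same intermediate did not pass (-0.10 ± 0.07). The factor that fell was Atp5sl, now named Dmac2, which is linked to the distal arm, from 46.7 ± 4.84 to 30.2 ± 2.04 CPM (log2 -0.62 ± 0.08). These means and SDs are over 3 libraries each.

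Among subunits encoded in mitochondrial DNA, those that rose did so by 0.52 to 1.05 on the log2 scale. Of 7 such genes 5 were tested, and 4 rose (80%, beside 26.7% of all tested genes) and 1 did not pass. Not tested were mt-Nd3, at 0 or 1 counts per library, and mt-Nd4l, at 0 counts in every library, so they add almost nothing to the sum below. The largest rise was that of mt-Nd4 (1.05 ± 0.08), and mt-Nd6 did not pass (-0.11 ± 0.13). The summed level of the 7 genes was 2389 ± 212 CPM over the wild-type libraries and 3905 ± 211 CPM over the KO libraries (SD, n = 3 each). That is a ratio of 1.63, beside 1.04 for the Nduf sum. The difference between these ratios was not tested, and reads of mitochondrial origin may also match copies in the nuclear genome.

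Nuclear genes of complexes II to V gave a similar median with fewer calls. Among 42 such genes 20 rose, 1 fell and 21 were not called, and the median log2 fold change was 0.15. The share called was 88.9% for complex III, 46.7% for complex V and 37.5% for complex II, and 3 of 10 complex IV genes were called. Beside these stand 66.7% of the 36 complex I subunits, 72.7% of all tested Nduf members and 52.9% of all tested genes. The complex II list had 8 genes, more than the enzyme has subunits, so the lists are not alike in make-up. Whether these shares differ between complexes was not tested.

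Within a library the subunits were far from equal in measured level, although complex I holds 1 copy of nearly every one of them. The part of transcript length and of multiply mapped reads in this spread was not tested. Levels between genes are given as CPM per kilobase of the principal transcript in GENCODE. In wild type the median over 44 tested members was 67.2 CPM per kilobase. Ndufa6 had the highest level at 209 ± 12.5 (SD, n = 3), followed by Ndufa7 at 144 ± 8.95, Ndufa4 at 135 ± 6.93 and Ndufa13 at 134 ± 5.83, of which neighbours after the first differed by no more than their spread. This order turns on the length used, which was chosen after the other had been seen: per kilobase of all annotated exons Ndufa13 was highest at 134, then Ndufb11 at 125 and Ndufa2 at 106, with Ndufa6 at 68.3 and Ndufa7 at 41.5. The lowest was Ndufb2 at 3.24 ± 0.262, whose principal transcript has 4371 bases, next to Ndufaf4 at 5.29 ± 0.209 and Ndufb4 at 5.92 ± 0.379. By CPM without length Ndufb4 was the lowest tested member, at 5.75 ± 0.368 CPM in wild type. Ndufb2 was at 15.0, 14.6 and 12.8 CPM in the wild-type libraries and 14.8, 15.3 and 15.4 CPM in the KO libraries, and its groups overlapped. The 7 assembly factors were between 5.29 and 18.9 CPM per kilobase, below the median of 74.6 for the subunits.

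Level and change were set side by side, with no test of their relation. Of the 22 tested members with the lowest wild-type levels per kilobase 16 rose, 1 fell and 5 did not pass. Among the other 22 there were 11 higher, 4 lower and 7 not passing. Over all tested genes 26.7% were higher and 26.1% lower. The shares among all genes of like level were not counted. The lower 22 include all 7 assembly factors, each of which rose, so level and class are not separated in this contrast. Across the 44 genes, which share libraries and are not independent, Spearman's rho between log2 fold change and wild-type level per kilobase was -0.47, and -0.46 with the length of all annotated exons. The same wild-type libraries enter both axes, since the log2 fold change is taken against them.

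**Figure D4:**
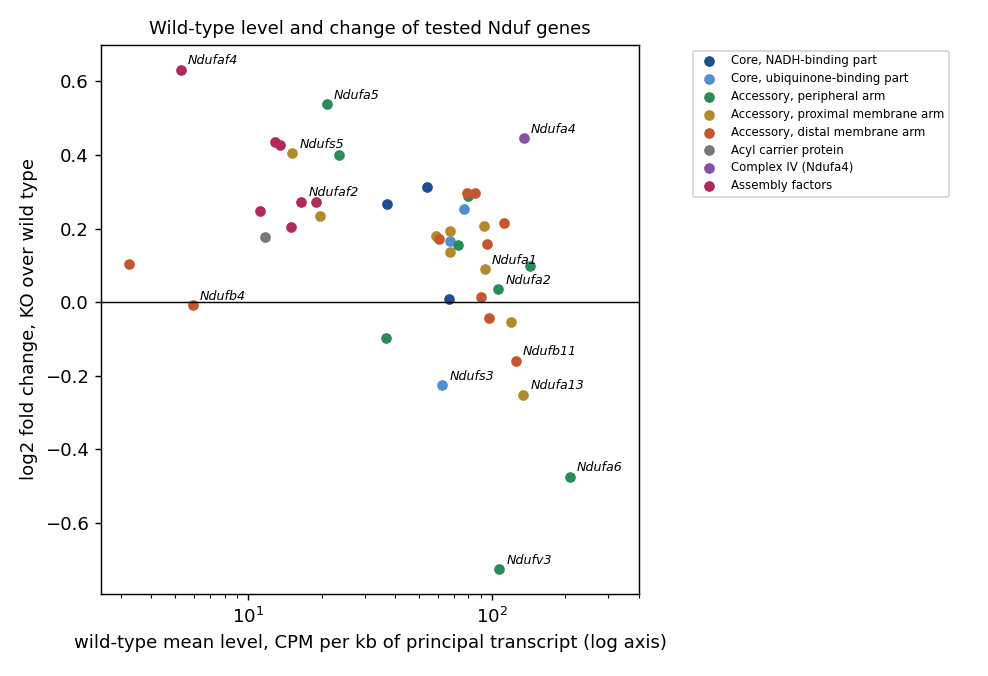
Wild-type mean level in CPM per kilobase of principal transcript (x axis, log scale) and log2 fold change of KO over wild type (y axis) of 43 of the 44 tested Nduf genes, each a point coloured by class. Ndufa6, at 209 CPM per kilobase, and Ndufv3 lie lowest on the y axis, and assembly factors lie at the left above 0.

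The members lie on 16 chromosomes, so what they share was looked for in the sequence before their start sites. RefSeq promoters (GRCm38.p6, 250 bases before to 50 after the start) were matched by symbol for 39 of 45 members, with 41 entries for those tested. Motifs were searched on both strands and, but for the first, by exact letters. Their letters were settled after matches were seen, and the 32851 promoters used for comparison were not limited to tested genes. The binding motif of NRF1, a regulator known for respiratory chain genes, was in 19.5% of these promoters and 3.02% of all 32851. Its 8 entries belong to 7 of 39 members, or 17.9%, because overlapping entries of Ndufa5 both hold it, and the 3 entries with the E-box below belong to 2 members. It is given by name because it holds an ambiguous letter. It was found for 5 of 24 members that rose (Ndufa5, Ndufs5, Ndufs6, Ndufaf4 and Ndufaf5), 0 of 5 that fell and 2 of 10 that did not pass. The YY1 motif AAGATGGCG was in 12.2% and 1.40%, in Ndufa9, Ndufc1, Ndufs4, Ndufs6 and Ndufs7. The CRE letters TGACGTCA were in 7.32% and 1.79%, the ETS letters CCGGAAG in 12.2% and 8.86%, and the GC box GGGCGG in 51.2% and 35.7%. For the E-box CACGTG, which Myc binds, the shares were 7.32% and 7.15%, for ACGTG, which the E-box contains and HIF1 binds, 19.5% and 19.6%, and for the ERR letters TCAAGGTCA 0% and 0.423%. CCAAT was in 31.7% of member promoters and 37.4% of all. It was in 4 of 5 members that fell, 7 of 24 that rose and 2 of 10 that did not pass, and the GC box was likewise in 4 of 5 that fell, 12 of 24 that rose and 4 of 10 that did not pass. With 5 members that fell, these splits are a description and set neither motif apart.

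The stretches below run from 120 bases before to 30 after the start. They are shown for the 3 members with the largest rise in their class that hold the NRF1 motif there, and for 3 members that fell and hold CCAAT, and were chosen after the matches were seen. For Ndufa5, which has more than 1 promoter entry, the entry with the match inside this stretch is printed. Capitals mark matches to the NRF1 motif or CCAAT on either strand, so that CCAAT on the other strand reads ATTGG. The positions are Ndufaf4 at chr4:24897963-24898112 on the plus strand, Ndufa5 at chr6:24527661-24527810 on the minus strand, Ndufs5 at chr4:123718157-123718306 on the minus strand, Ndufv3 at chr17:31519995-31520144 on the plus strand, Ndufa6 at chr15:82354262-82354411 on the minus strand and Ndufb11 at chrX:20617590-20617739 on the minus strand.
Ndufaf4: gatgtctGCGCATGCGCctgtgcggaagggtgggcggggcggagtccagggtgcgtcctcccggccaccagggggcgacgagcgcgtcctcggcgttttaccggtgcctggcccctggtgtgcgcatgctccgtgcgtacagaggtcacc
Ndufa5: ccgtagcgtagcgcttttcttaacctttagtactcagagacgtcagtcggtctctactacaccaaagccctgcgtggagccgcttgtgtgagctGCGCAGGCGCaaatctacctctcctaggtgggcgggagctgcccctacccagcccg
Ndufs5: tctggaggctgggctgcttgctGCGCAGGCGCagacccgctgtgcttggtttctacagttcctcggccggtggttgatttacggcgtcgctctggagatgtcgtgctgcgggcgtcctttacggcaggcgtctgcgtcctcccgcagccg
Ndufv3: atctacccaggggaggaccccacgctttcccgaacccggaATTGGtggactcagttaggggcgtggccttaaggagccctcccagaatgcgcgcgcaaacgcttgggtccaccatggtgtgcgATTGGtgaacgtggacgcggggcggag
Ndufa6: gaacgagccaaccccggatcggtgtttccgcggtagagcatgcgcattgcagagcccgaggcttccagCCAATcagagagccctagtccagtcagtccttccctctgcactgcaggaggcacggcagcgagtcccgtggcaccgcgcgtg
Ndufb11: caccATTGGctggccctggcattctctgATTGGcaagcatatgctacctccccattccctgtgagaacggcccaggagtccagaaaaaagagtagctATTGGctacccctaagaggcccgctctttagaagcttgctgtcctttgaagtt
Ndufaf4, Ndufa5 and Ndufs5 each held 1 NRF1 match here, starting 113, 26 and 98 bases before the start site. Ndufv3 held CCAAT letters from 80 bases before the start and from base 4 after it, Ndufa6 from 52 bases before, and Ndufb11 from 116, 92 and 23 bases before. A match describes the letters only, and no binding was measured.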

How the data were processed

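The deposited file is a table of unnormalized read counts, with genes as rows and the 6 libraries as columns. Per the submitters' processing notes, the mm10 genome and the tools STAR 2.5.2, Cufflinks, HTSeq 0.6.1, FastQC and DESeq2 1.12 were used, with no role stated for any. Libraries were stranded poly(A) mRNA, per the labels' protocols. The sources used here do not give the annotation release, the strand setting or the handling of multiply mapped reads. Genes with pseudogenes or overlapping neighbours are therefore uncertain.

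The counts were tested with edgeR 4.0.16 in R 4.3.3: filterByExpr, TMM (factors 0.949 to 1.03), and the quasi-likelihood F test with 4 residual degrees of freedom over 14209 genes, Benjamini-Hochberg adjusted. CPM are TMM-scaled. The procedure was tested on simulated counts with few changed genes and the same spread for every gene. That setting differs from these data, where 52.9% of tested genes were called, so it does not measure error rates here. Members' positions and lengths come from GENCODE M21 (mm10). The principal transcript was chosen as the length after exon unions were seen to include retained introns.

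Values per library are given for core subunits (1 tested member is counted in the totals but not reported here), the largest called rise and fall of each other class, Ndufv3, Ndufa4, Ndufa4l2 and the highest and lowest level per length, with other members by fold change. Ecsit, Acad9 and Tmem126b were named after their values were seen. Motif letters were settled after matches were seen. Members and lists were chosen with earlier results of these data known. Alternatives were DESeq2 size factors, upper quartile or library totals in edgeR, DESeq2 1.42.0, limma-voom (limma 3.58.1), no filter, 1 CPM in 3 libraries, a replicate block, each library left out, and an adjusted p under 0.01.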

Additional observations from a re-analysis of the deposited data

How the results depend on the processing

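Of the 32 called members, 20 passed in all 14 fits at an adjusted p of 0.05 (17 higher and 3 lower), and 0 changed sign in any of them. Among members that did not pass, 7 changed sign in at least 1 fit. The count of members higher in KO was 22 with DESeq2, 25 without the filter, 26 with DESeq2 size factors, 28 with upper quartile factors and 29 with library totals alone, against 27. DESeq2 ended the calls of Ndufab1, Ndufaf6, Ndufb3, Ndufb9 and Ndufs8 (adjusted p of 0.0565 to 0.0755), no filter those of Ndufaf6 (0.0645) and Ndufb9 (0.0517), and DESeq2 size factors in edgeR that of Ndufb3 (0.0562). With library totals alone 3 members were lower, against 5, the median of the members was 0.254 on the log2 scale and that of all genes 0.081, and 62.0% of all calls were higher, against 50.6%. At an adjusted p under 0.01, 17 members were higher and 3 lower. With each library left out in turn, 18 to 25 members were higher, with the lowest count without KO replicate 2, 3 to 5 were lower, with the lowest count without KO replicate 3, the median ran from 0.151 to 0.200, and the count over all genes from 5985 to 7534.

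With the replicate number as a block, 27 members were higher and 5 lower, the median was 0.179 and 7900 genes were called, against 7513. Deviations of same-numbered libraries had correlations of 0.24, 0.206 and 0.013. Each KO library correlated best with the wild-type library of its own number, though KO replicate 3 only narrowly (0.009 and -0.027 with the others). Wild-type replicate 3 correlated best with KO replicate 2 (0.153). The numbers were not taken as pairs, since the labels do not say that they pair samples.

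Depth limits Ndufa4l2, at 1 or 2 counts per library.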
